A study of Arabidopsis thaliana with 8 samples.

Results

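PCO1 (AT5G15120), PCO2 (AT5G39890) and HRE1 (AT1G72360, listed as ERF73 in the annotation used) are 3 genes of the oxygen sensing machinery of Arabidopsis. They were taken by name, and each is read by 1 probe set of the ATH1 array, so that they make up 3 of 22646 probe sets compared. Transcripts were measured on 8 arrays of total RNA from whole seedlings aged 7 d, with 2 arrays in each of 4 groups. These groups were OE-HRA1 seedlings after 2 h of hypoxia (2HS), Col-0 seedlings after the same hypoxia, OE-HRA1 seedlings after 2 h of non-stress treatment (2NS, in air), and Col-0 seedlings after that non-stress treatment. OE-HRA1 plants are transgenics in the Col-0 ecotype that carry HRA1 fused to a FLAG tag under the constitutive Cauliflower Mosaic Virus 35S promoter, and they keep their own HRA1 gene. Lines #1 and #2 gave 1 array each per treatment, so that the spread within an OE-HRA1 group includes any difference between the lines. Col-0 is the wild type. Hypoxia was imposed by replacing the air of the chamber with argon under dim light, and the air samples stood in such chambers with access to ambient air. The design text of the series names 2 independent biological replicate experiments. For the pair of hypoxic Col-0 arrays 1 label (source) gives the non-stress treatment and 3 labels (title, description, treatment) give hypoxia, and the arrays were grouped as hypoxia.

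PCO1 and PCO2 encode plant cysteine oxidases, enzymes that use molecular oxygen to oxidize a cysteine at the start of a protein. Proteins marked in this way enter the Cys branch of the N-degron pathway and are degraded as long as oxygen is present. Their best known targets are the group VII ethylene response factors (ERFs), transcription factors that accumulate when oxygen falls and activate genes of fermentation and hypoxia survival. PCO1 and PCO2 are themselves induced by hypoxia, which places them in a feedback loop on the factors they help to remove. HRE1 is a group VII ERF whose own transcript is induced by low oxygen. HRA1 (AT3G10040) encodes a trihelix transcription factor, a class of plant proteins that bind DNA, and is itself a hypoxia-induced gene.

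The values are robust multichip average (RMA) signals on the log2 scale, where a difference of 1 unit, given as a signal log2 ratio (SLR) of 1, is a doubling. A call, higher or lower, required that the |SLR| exceed 1 with an adjusted p below 0.01 in limma, with Benjamini-Hochberg adjustment over all probe sets of a comparison. Arrays of a group correlated at 0.994 to 0.997 over all probe sets, and array medians lay between 7.15 and 7.26. Col-0 arrays of both treatments enter several of the comparisons below, which are therefore not independent of each other. Since whole seedlings were used, fewer cells of a type and less RNA per cell cannot be told apart.

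In OE-HRA1 both oxidase genes rose under hypoxia, and no increase of HRE1 was called. PCO1 read 10.75 in line #1 and 10.80 in line #2 under hypoxia, against 8.36 and 8.31 in the same lines in air. PCO2 read 10.48 and 10.64 in the hypoxic lines, against 7.85 and 7.99 in the lines in air. HRE1 read 7.22 and 7.77 in the hypoxic lines, against 7.32 and 7.05 in the lines in air. The hypoxic arrays of both oxidase genes were clear of the air arrays, whereas those of HRE1 overlapped with them. Separation alone is weak evidence with 2 arrays per group. Its share over all probe sets was not counted, here or in the comparisons below. PCO1 rose 5.44-fold (SLR 2.44, SE 0.11, adjusted p = 7.99e-06) and PCO2 6.21-fold (SLR 2.64, SE 0.12, adjusted p = 7.94e-06). HRE1 had an SLR of 0.31 (SE 0.21, adjusted p = 0.354). Its 95% interval was -0.17 to 0.78, with an upper end of 1.72-fold. Thus 2 of 3 genes were called higher, against 1.96% of all probe sets.

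In Col-0 all 3 genes rose under hypoxia, each by more than in OE-HRA1. PCO1 read 12.86 and 13.06 on the Col-0 hypoxia arrays, against 8.62 and 8.90 on the Col-0 air arrays. PCO2 read 12.78 and 13.09 in hypoxic Col-0, against 8.41 and 8.29 in Col-0 in air. HRE1 read 10.81 and 10.50 in hypoxic Col-0, against 7.15 and 6.78 in Col-0 in air. For each gene the lower hypoxia array stood well above the higher air array, by 3.96 for PCO1, 4.37 for PCO2 and 3.34 for HRE1 on the log2 scale. The increases were 18.3-fold for PCO1 (SLR 4.20, SE 0.11, adjusted p = 3.19e-07), 24.0-fold for PCO2 (SLR 4.59, SE 0.12, adjusted p = 2.83e-07) and 12.9-fold for HRE1 (SLR 3.69, SE 0.21, adjusted p = 1.69e-05) by limma. Hence 3 of 3 genes were called higher, against 2.02% of all probe sets. They held ranks 27, 18 and 38 of 22646 by the size of the increase.

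**Figure D1:**
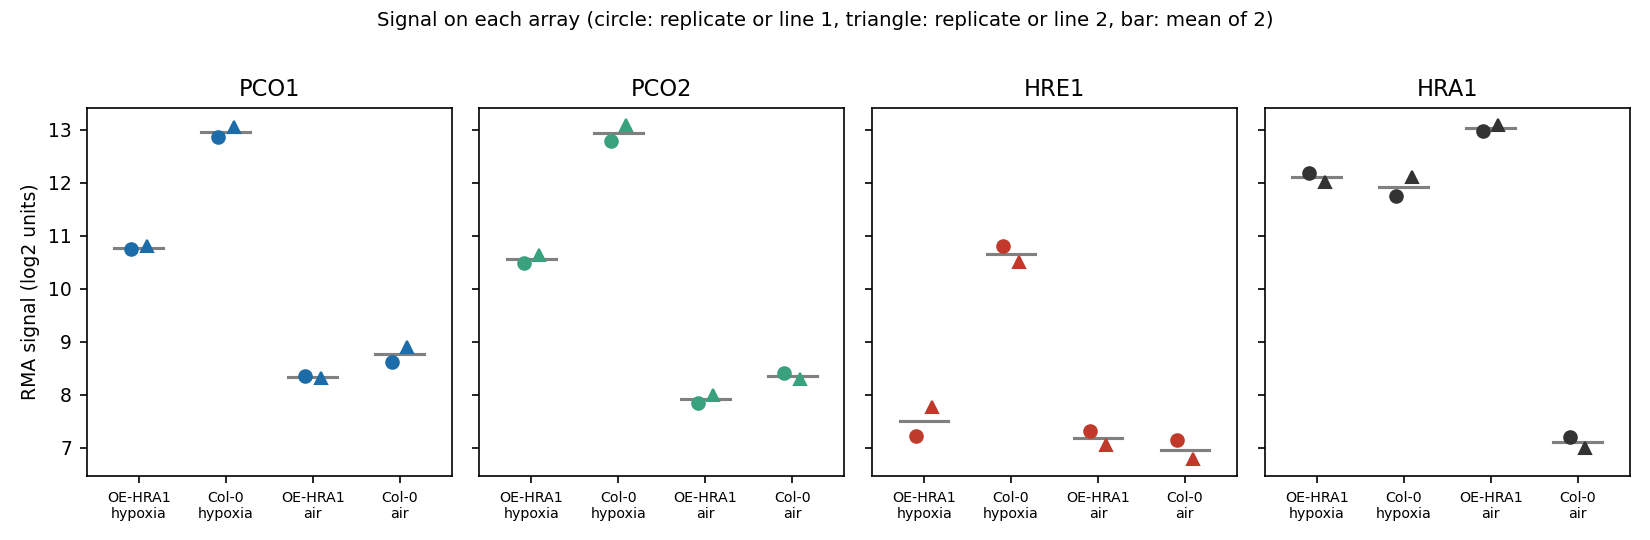
RMA signal in log2 units (vertical axis) on each of the 8 arrays for PCO1, PCO2, HRE1 and HRA1, by group (horizontal axis). Circles are replicate 1 or line #1, triangles replicate 2 or line #2, and bars the mean of the 2 arrays. For PCO1 and PCO2 the OE-HRA1 hypoxia arrays lie between the Col-0 hypoxia arrays and the air arrays, and for HRE1 they lie at 7.22 and 7.77, near the air arrays.

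Each line showed the smaller increase of the oxidase genes on its own. The increase of PCO1 was 2.39 in line #1 and 2.49 in line #2, on the log2 scale, and that of PCO2 was 2.63 and 2.64. The smallest difference between any Col-0 hypoxia array and any Col-0 air array was 3.96 for PCO1 and 4.37 for PCO2. For HRE1 the difference was -0.11 in line #1 and 0.72 in line #2, against a smallest array difference of 3.34 in Col-0. On these arrays the lines differed from each other in HRE1 by more than in the oxidase genes, and both lay far below Col-0. With 1 array per line and treatment, a line difference cannot be told from array variation. The Col-0 array differences for HRE1 also spread, from 3.34 to 4.03.

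Under hypoxia the transcripts of all 3 genes were lower in OE-HRA1 than in Col-0. On the linear scale the hypoxic lines held 22.0% of the Col-0 signal for PCO1 (95% interval 18.4 to 26.3%), 19.3% for PCO2 (15.9 to 23.3%) and 11.2% for HRE1 (8.05 to 15.5%). The higher of the OE-HRA1 arrays lay under the lower of the Col-0 arrays by 2.06, 2.15 and 2.73 log2 units in that order of genes. The SLR was -2.18 for PCO1 (SE 0.11, adjusted p = 6.61e-05), -2.38 for PCO2 (SE 0.12, adjusted p = 6.61e-05) and -3.16 for HRE1 (SE 0.21, adjusted p = 0.000221). Hence 3 of 3 genes were called lower, against 0.627% of all probe sets. HRE1 stood 10th from the bottom of all probe sets by SLR, PCO2 19th and PCO1 24th. Without line #2 the SLR was -2.21 for PCO1 (adjusted p = 0.013) and -2.45 for PCO2 (adjusted p = 0.0109), which left only HRE1 past the threshold, in a fit with a single OE-HRA1 array per treatment that is assumed to vary like the Col-0 arrays.

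In air the differences between the genotypes were small, and 0 of 3 genes were called, against 0.11% of all probe sets in either direction. The air arrays of OE-HRA1 and Col-0, as given above, overlapped for HRE1. For PCO1 and PCO2 they did not, with OE-HRA1 lower by gaps of only 0.27 and 0.29 log2 units. With 2 arrays per group such a separation is weak evidence, and its share over all probe sets was not counted. PCO1 had an SLR of -0.43 (95% interval -0.69 to -0.17, adjusted p = 0.125) and PCO2 of -0.43 (-0.70 to -0.15, adjusted p = 0.15). HRE1 had an SLR of 0.22 (-0.25 to 0.69, adjusted p = 0.717). The unadjusted p of limma was 0.0048 for PCO1, 0.00723 for PCO2 and 0.317 for HRE1. In this comparison 3303 of 22646 probe sets had an unadjusted p under 0.05, and PCO1 and PCO2 held ranks 868 and 1088 by p. The Col-0 air signal of HRE1 lay close to the array medians and above the lowest decile of each array (4.45 to 4.52).

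The change with hypoxia differed between the genotypes for each gene. The interaction, the hypoxia SLR in OE-HRA1 minus that in Col-0, was -1.75 for PCO1 (SE 0.16, adjusted p = 0.00426), -1.95 for PCO2 (SE 0.17, adjusted p = 0.00404) and -3.38 for HRE1 (SE 0.29, adjusted p = 0.00404). In this comparison 3 of 3 genes were called lower, against 0.159% of all probe sets. The OE-HRA1 lines thus showed 58.2% of the Col-0 log2 increase for PCO1 (57.1% in line #1 and 59.4% in line #2), 57.5% for PCO2 (57.3% and 57.6%) and 8.30% for HRE1 (-2.88% and 19.5%). The 95% interval of the interaction ran from -2.12 to -1.39 for PCO1, from -2.34 to -1.56 for PCO2 and from -4.05 to -2.71 for HRE1. The difference between HRE1 and the oxidase genes was not tested. With the transgenic line as a block the interaction of PCO1 had an adjusted p of 0.0142 and that of HRE1 of 0.0101, so that PCO2 alone passed (adjusted p = 0.00936). All 3 interactions also passed without either Col-0 hypoxia array. In the other fits that left out 1 array, 0 or 1 gene passed: HRE1 without the line #2 hypoxia array (-3.65, adjusted p = 0.00849), PCO1 without Col-0 air replicate 2 (-1.89, adjusted p = 0.00795), and none without Col-0 air replicate 1, either OE-HRA1 air array or the line #1 hypoxia array. None passed without line #1 (-1.70 for PCO1, -1.94 for PCO2, -2.97 for HRE1) or line #2 (-1.80, -1.96 and -3.79), with each SLR still negative.

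**Figure D2:**
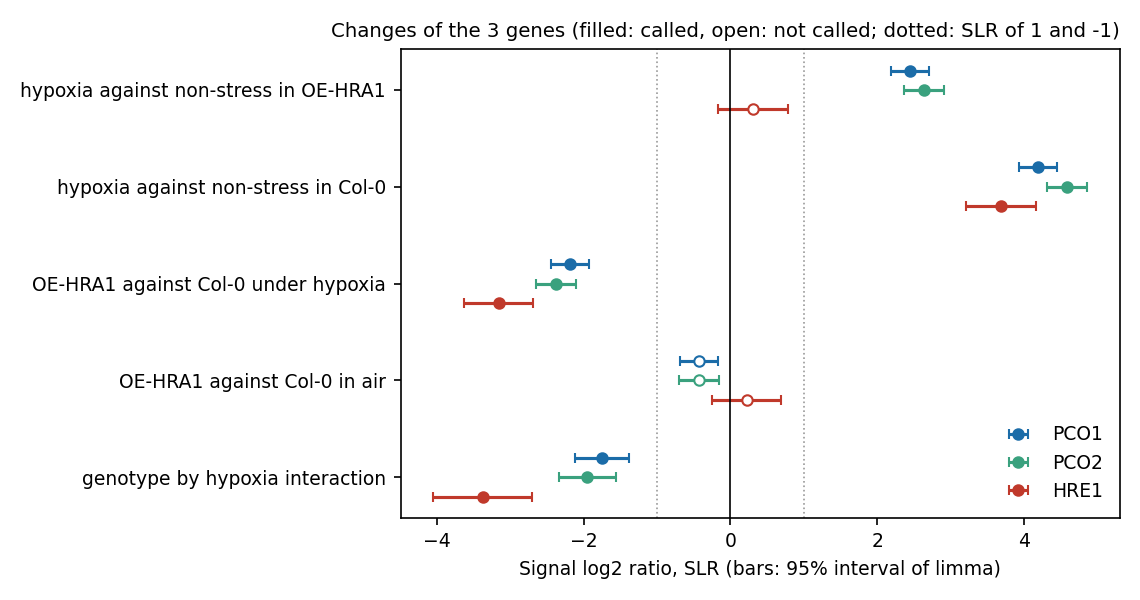
SLR (horizontal axis, log2) of PCO1, PCO2 and HRE1 in the 5 comparisons (vertical axis), with bars for the 95% interval of limma and dotted lines at an SLR of 1 and -1. Filled symbols are called and open symbols are not: HRE1 is open in OE-HRA1 at 0.31, and all 3 genes are open in air.

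Between the genotypes, a difference in HRA1 was called in air, and differences in the 3 genes were called under hypoxia. HRA1 read 12.19 and 12.02 in the hypoxic lines, against 11.74 and 12.10 in hypoxic Col-0, arrays that overlap (SLR 0.18, SE 0.13, adjusted p = 0.436). In air it read 12.98 and 13.09 in the lines, against 7.20 and 7.00 in Col-0 (SLR 5.94, SE 0.13, adjusted p = 1.13e-06). The genotypes thus differed in HRA1 signal in air, where PCO1, PCO2 and HRE1 were not called, and had overlapping HRA1 signals under hypoxia, where all 3 were lower in OE-HRA1. Within Col-0, HRA1 rose with hypoxia as the 3 genes did (SLR 4.82, SE 0.13, adjusted p = 3.81e-07). The probe set reads the transgene and the endogenous gene together. By RT-qPCR of hypoxic seedlings, the study reported more total HRA1 transcript in both lines than in the wild type, and less endogenous HRA1 transcript. The overlap of the array signals therefore does not show that HRA1 levels were equal under hypoxia. A relation between the HRA1 level and the levels of PCO1, PCO2 and HRE1 was not tested.

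Other signals moved with genotype too. A marker counts as measured here only if the annotation used gave it a probe set of a single gene, and the rest were not assessed. Of 8 embryo and seed markers 3 were measured, and their summed level was 11.75 to 11.90 log2 units in hypoxic OE-HRA1 against 9.77 to 9.85 in hypoxic Col-0, and 11.26 to 11.42 in OE-HRA1 in air against 9.79 to 10.41 in Col-0 in air. CRU3, a seed storage protein gene, was called higher in hypoxic OE-HRA1 (SLR 3.13, adjusted p = 0.000275), as it was in OE-HRA1 in air (SLR 2.01, adjusted p = 0.00912), and OLEO1, an oil body gene, was higher under hypoxia (SLR 1.69, adjusted p = 0.00934). Of 10 root markers 4 were measured, and they did not move one way: under hypoxia the SLR of OE-HRA1 against Col-0 was -0.35 for PYK10, a beta-glucosidase, and 0.47 for EXPA7, 0.34 for COBL9 and 0.32 for EXPA18, genes of root hairs, and in air it was -0.27, 0.64, 0.32 and 0.31 in that order, with none called. Their summed level, most of which is the signal of PYK10, was 13.58 to 13.64 in hypoxic OE-HRA1 against 13.93 to 13.96 in hypoxic Col-0, and 13.93 to 14.07 in OE-HRA1 in air against 14.17 to 14.32 in Col-0 in air. Of 11 green shoot markers only LHCB4.1 was measured, and it lay between 13.87 and 13.98 on all arrays. The difference between the 3′ and 5′ control probe sets was 1.98 to 1.99 log2 units for actin in hypoxic OE-HRA1 against 2.21 to 2.44 in hypoxic Col-0, 0.150 to 0.161 for GAPDH against 0.0824 to 0.114, and 1.07 to 1.09 for ubiquitin against 1.11 to 1.13. The part of these differences in the results for PCO1, PCO2 and HRE1 was not tested.

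PCO1 and PCO2 belong to the core hypoxia genes, which are induced across cell types of Arabidopsis. The supplementary table of the study, which holds genes selected on these and other arrays, marks 46 core genes, of which 45 have a probe set of a single gene. In OE-HRA1 33 of the 45 rose under hypoxia, with a median SLR of 1.96 against 0.01 over all probe sets, and in Col-0 44 rose, with a median of 3.31 against -0.01 over all probe sets. The count in OE-HRA1 was lower when a line was left out, in fits with a single OE-HRA1 array per treatment. The count over all probe sets also fell in these fits, so the drop was not particular to the core genes. Between the genotypes, 36 of the 45 were called lower in hypoxic OE-HRA1 (median SLR -1.49), against 0.627% of all probe sets. Fewer of the 45 were called when an array or a line was left out, and the count over all probe sets fell in some of these fits too. The median share of the Col-0 log2 increase found in OE-HRA1 was 58.7% over the core genes, with quartiles of 34.1% and 72.4%, beside the 58.2% of PCO1 and the 57.5% of PCO2. Among the 45 core genes and HRE1, counted from the smallest share upwards, HRE1 ranked 6th, PCO2 22nd and PCO1 23rd. By the size of the increase PCO2 ranked 12th and PCO1 14th in OE-HRA1, and 15th and 19th in Col-0, and by the size of the decrease between the genotypes under hypoxia they ranked 13th and 14th. In the interaction 21 of the 45 core genes were called lower, and 13 with the transgenic line as a block. HRE1 is not marked as a core gene. HRA1 is marked, and it enters the share, the ranks and the interaction count. Its SLRs were 4.82 in Col-0 and -0.93 in OE-HRA1, where its probe set also reads the transgene. The list comes from earlier work, and the study counts more core genes than are marked here, so the genes counted are a part of the list. The table that marks it holds only genes selected as regulated on these and other arrays.

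Among the ERF genes of the same table, a lower level in hypoxic OE-HRA1 was called for HRE1 alone. The table lists 24 AP2/ERF genes with a single gene probe set, of which 13 rose under hypoxia in both genotypes, out of 18 that rose in Col-0. In OE-HRA1 15 rose in all, and fewer when a line was left out, as was so over all probe sets. HRE1 was the 1 gene of the 24 called lower in OE-HRA1 under hypoxia, and the 1 gene with a called interaction, a count of 0 with the transgenic line as a block. Without Col-0 hypoxia replicate 1 or 2 the genes called lower under hypoxia numbered 2 and 3. The median share of the Col-0 log2 increase found in OE-HRA1 was 85.5% over the 18 genes, with 8.30% for HRE1 and 29.8% for the next lowest gene, AT1G77200, which was named after its values were seen. ERF6, ERF5 and ERF13, also chosen after their values were seen, had SLRs of 0.71, 0.91 and 1.03 between hypoxic OE-HRA1 and hypoxic Col-0 (adjusted p = 0.00832, 0.0033 and 0.0117), none of which met both thresholds. At an adjusted p under 0.05 with no minimum SLR, 7 of the 24 were lower and 4 higher in hypoxic OE-HRA1. The table holds genes selected as regulated on these and other arrays, so the counts are a description of that list.

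**Figure D3:**
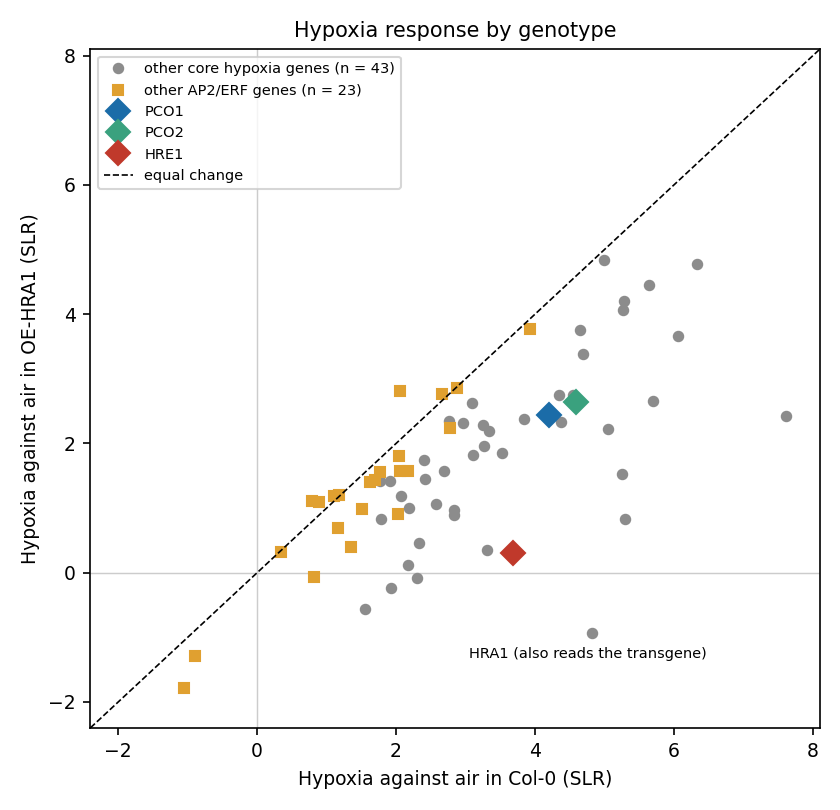
Change with hypoxia in OE-HRA1 (vertical axis, SLR) against that in Col-0 (horizontal axis, SLR) for PCO1, PCO2 and HRE1 (diamonds), 43 other core hypoxia genes (circles) and 23 other AP2/ERF genes (squares). The dashed line marks an equal change, and PCO1 and PCO2 lie amid the core genes. HRE1 lies at 3.69 in Col-0 and 0.31 in OE-HRA1, near the core gene PHI-1 at 3.31 and 0.35. Other core genes also lie near or below no change in OE-HRA1.

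Few other parts of the oxygen sensing pathway had an assigned probe set. Of 13 enzymes of the N-degron pathway other than PCO1 and PCO2, 3 were measured, and 0 of them were called in any comparison. These were the amidases NTAN1 and NTAQ1, which act on asparagine and glutamine at the start of proteins, and the methionine aminopeptidase MAP1A. Their SLRs with hypoxia lay between -0.04, for NTAQ1 in Col-0, and 0.21, for MAP1A in OE-HRA1. The remaining oxidases PCO3, PCO4 and PCO5, the arginyl transferases ATE1 and ATE2 and the ligase PRT6 were not analysed here, nor were HRE2 and the group VII ERFs RAP2.2, RAP2.3 and RAP2.12. Of 9 genes listed for a link to these factors, 2 were measured. MPK3, a mitogen-activated protein kinase, rose in OE-HRA1 (SLR 1.38, adjusted p = 0.00017) and in Col-0 (SLR 1.12, adjusted p = 0.000456), and HB1, the hemoglobin that scavenges nitric oxide under hypoxia, rose in OE-HRA1 (SLR 2.36, adjusted p = 6.28e-05) and in Col-0 (SLR 2.76, adjusted p = 2.08e-05). Neither was called between the genotypes under hypoxia, with an SLR of 0.55 for MPK3 (adjusted p = 0.0299) and -0.62 for HB1 (adjusted p = 0.055). HB1 is also among the core hypoxia genes counted above.

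The 2 oxidase genes had nearly the same pattern over the 8 arrays. After each gene was centred on its own mean, PCO1 and PCO2 differed by a root mean square of 0.20 log2 units (r = 0.998 over 8 arrays in 4 groups), and of all named probe sets PCO2 was the most like PCO1. The named genes next to PCO1 were AT3G27220 at 0.23, ADH1, the alcohol dehydrogenase of ethanol fermentation, at 0.23, AT5G66985 at 0.31 and AT2G17850 at 0.38. Those next to PCO2 were AT3G27220 at 0.14, PCO1 at 0.20, ADH1 at 0.28, AT2G17850 at 0.32 and AT4G24110 at 0.33. HRE1 differed by 0.82 from PCO1 (r = 0.898) and by 0.91 from PCO2 (r = 0.902).

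The genes most like HRE1 were another set, of which ACO1 and PFK6 are core hypoxia genes. The NADPH oxidase gene RBOHB differed by 0.41, ACO1, an ACC oxidase of ethylene synthesis, by 0.44, the galactolipid synthase gene MGDC by 0.53, ARL by 0.54 and the phosphofructokinase gene PFK6 by 0.55. Their hypoxia SLRs in OE-HRA1 lay between -0.09 for PFK6 and 1.07 for MGDC and ARL, against SLRs in Col-0 of 2.3 for PFK6, 2.51 for ARL, 2.65 for RBOHB, 2.83 for ACO1 and 3.21 for MGDC. A correlation above 0.95 over the 8 arrays was found with 182 probe sets for PCO1, 184 for PCO2 and 59 for HRE1. The 8 arrays are 4 groups of 2 and not 8 separate conditions.

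**Figure D4:**
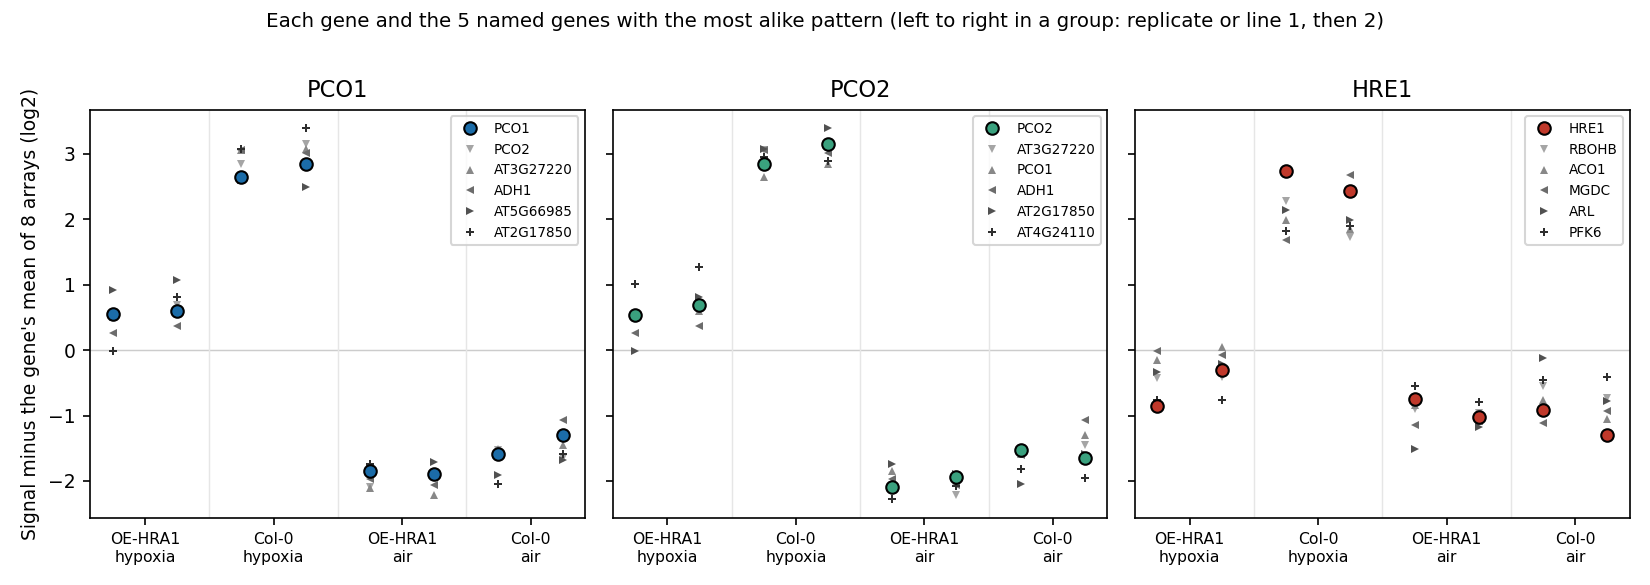
Signal minus the gene's own mean over the 8 arrays (vertical axis, log2 units) by group (horizontal axis) for PCO1, PCO2 and HRE1 (large circles) and the 5 named genes most like each of them (small symbols), with replicate or line 1 left of 2 in each group. In the hypoxic OE-HRA1 lines PCO1, PCO2 and most genes like them lie above their mean, whereas HRE1 and most genes like it lie near or below theirs.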

How the data were processed

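Per the labels and the methods of the study, the authors extracted total RNA, hybridized it to ATH1 arrays, made present calls with MAS5 and summarized probe sets with RMA. The deposited table holds these values on the log2 scale for 8 arrays and 22810 probe sets. They were used as given. The methods also removed organelle probe sets and those present on too few arrays. Here 64 control and 100 organelle probe sets were left out, and the present-call filter was not repeated. Gene names came from the platform table (13415 probe sets) or else from a supplementary table of the study (573, among them PCO1, PCO2 and HRE1), and 8658 probe sets stayed without a single gene.

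A linear model of 4 group means, with 4 residual and 4.14 prior degrees of freedom, was fitted with limma 3.58.1 in R 4.3.3, with Benjamini-Hochberg adjustment over 22646 probe sets. The thresholds of the methods, an |SLR| over 1 with an adjusted p below 0.01, were used. PCO1, PCO2 and HRE1 and the gene lists were chosen with earlier results of these data known. The text names these 3 genes, HRA1, called or central pathway genes, and the 5 named probe sets with the smallest root mean square difference from each of the 3. Hypoxia and air arrays of OE-HRA1 pair by line (correlation of their deviations 0.15). The Col-0 arrays share only a replicate number (0.374). On simulated data for OE-HRA1 against Col-0 under hypoxia, run on 22646 probe sets, the model found 89 of 100 changes of 1.5 log2 units and 99 of 100 changes of 3, with 0 false calls. The simulated noise was normal and independent between arrays. It held no line effect shared between treatments and no changes other than those added, so the counts do not cover such effects. The number of arrays limits the precision. Alternatives were array centring, a further quantile normalization, the 60% of probe sets with the highest mean signal, a trended and robust prior, replicate and line blocks, the compared groups only, an adjusted p under 0.05 with no minimum SLR, and leaving out each array or line.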

Additional observations from a re-analysis of the deposited data

Results flagged for a closer look

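The response to hypoxia differed between OE-HRA1 and Col-0 by the interaction term of limma for each gene. The interaction was -1.75 for PCO1 (adjusted p = 0.00426), -1.95 for PCO2 (adjusted p = 0.00404) and -3.38 for HRE1 (adjusted p = 0.00404). For each gene the change with hypoxia in both lines was below that in Col-0. Not every interaction call held with the transgenic line as a block or when arrays or lines were left out, as given below.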

How the results depend on the processing

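Over 15 SLRs (3 genes in 5 comparisons) and the alternatives that keep all arrays of the groups compared, 115 of 117 values kept their direction and their side of the threshold. The exceptions were interactions with the transgenic line as a replicate block, -1.75 for PCO1 (adjusted p = 0.0142) and -3.38 for HRE1 (adjusted p = 0.0101), which left 1 of 3 genes called. Most of these alternatives could not change an SLR, since only array centring and the further quantile normalization alter the signals. The looser threshold, an adjusted p under 0.05 with no minimum SLR, could not lose a call. The replicate number as a block over all 8 arrays changed no call of the 3 genes, with interactions of -1.75 for PCO1 (adjusted p = 0.00697), -1.95 for PCO2 (0.00672) and -3.38 for HRE1 (0.00838).

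Leaving out single arrays or both arrays of a line gave interactions of -1.89 to -1.61 for PCO1, -2.10 to -1.80 for PCO2 and -3.79 to -2.97 for HRE1, with 0 to 3 genes called. Without line #1 they were -1.70, -1.94 and -2.97 in that order, and without line #2 they were -1.80, -1.96 and -3.79. All 3 calls held without either Col-0 hypoxia array. HRE1 alone held without the line #2 hypoxia array (-3.65, against -3.11 without that of line #1) and PCO1 alone without Col-0 air replicate 2, and no call held without Col-0 air replicate 1, either OE-HRA1 air array, the line #1 hypoxia array or a whole line. The highest adjusted p was 0.257 for PCO1, 0.218 for PCO2 and 0.101 for HRE1. Such fits have fewer residual degrees of freedom.

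OE-HRA1 against Col-0 under hypoxia ran from -2.28 to -2.08 for PCO1, from -2.53 to -2.23 for PCO2 and from -3.43 to -2.89 for HRE1, with 1 to 3 genes called; 2 calls were lost without line #2, at -2.21 for PCO1 and -2.45 for PCO2. In OE-HRA1 the hypoxia SLR of HRE1 ran from -0.11 to 0.72, and its share of the Col-0 log2 increase was -2.88% without line #2, the cause of which was not tested. Fewer than 36 of the 45 core genes were called lower in hypoxic OE-HRA1 when arrays or lines were left out, and the count over all probe sets fell in some of these fits too. With the line block, interactions called lower numbered 0 (1 without the block) among the 24 AP2/ERF genes and 13 (21 without it) among the 45 core genes, which gave 1 to 14 when arrays or lines were left out.

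At an adjusted p under 0.05 with no minimum SLR, all probe sets higher under hypoxia numbered 1828 (443 with the thresholds used) in OE-HRA1 and 1639 (458) in Col-0. Those lower in hypoxic OE-HRA1 than in Col-0 numbered 1007 (142), those with a lower interaction 72 (36, and 18 with the line block) and the AP2/ERF genes lower in hypoxic OE-HRA1 7 (1). In air 118 were higher (9) and 172 lower (16), with 18 and 30 under the trended prior, 5 and 7 with the line block, and 2 and 1 in a fit of the compared groups only.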
